A study of Mus musculus with 4 samples.

Results

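The genes described here encode 31 enzymes that make purine, pyrimidine and deoxynucleotide building blocks, chosen by name from the 55487 gene IDs of the count table and grouped by pathway step. All 31 were present, and all 31 passed the filter on low counts. They were measured by RNA sequencing in group 2 innate lymphoid cells (ILC2s), lymphocytes without antigen receptors, which had been sorted from mouse colon and kept in culture with IL-33, IL-25, IL-7 and IL-2. The FK866 group received FK866, a small-molecule inhibitor of the NAD+ salvage enzyme NAMPT, for 16 h (n = 2 libraries), and the Control group did not (n = 2 libraries; no vehicle is named). The labels name no strain, sex or age, nor how many animals or cultures each library came from. The p-values therefore describe the spread among these 4 libraries, and that spread may be technical.

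Nucleotide synthesis starts from phosphoribosyl pyrophosphate (PRPP), an activated ribose that also serves NAMPT itself as a substrate. Purine rings are assembled on PRPP up to inosine monophosphate, from which separate branches lead to AMP and GMP, whereas the pyrimidine ring is built first and then joined to PRPP to give UMP. Salvage enzymes bypass these routes by recycling bases and nucleosides. Ribonucleotide reductase turns ribonucleotides into deoxynucleotides, and a further set of enzymes makes thymidylate, which only DNA needs. Dividing lymphocytes draw heavily on all of these steps.

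Library totals were 27617750 and 32241615 gene counts in FK866 and 37841233 and 32540325 in Control. FK866 replicate 2 reached 10 counts for 22461 gene IDs, where the remaining libraries did so for 17152 to 18667. Results that rest on this library are also given without it. The ILC2 transcription factor gene Gata3 stood at 842 and 699 CPM (the share of a library's counts held by a gene, scaled by TMM factors) in FK866 and at 1082 and 947 CPM in Control (log2 -0.40, adjusted p = 0.0921). Of the 12 listed ILC2 markers, 2 were called lower, Il13 (log2 -1.49) and Icos (-0.84), and 1 higher, Rora (1.70). The 2 are 16.7% of the list, close to the 15.6% called lower among tested genes with a mean log2 CPM of 5 or more. Among those abundant genes 10.7% were called higher, and among all tested genes 7.89% were called lower and 5.31% higher. The T cell gene Cd3e lay between 1.32 and 2.15 CPM, but Cd3g and Lat of the same list were higher. Cd3g lay between 14.4 and 15.4 CPM and Lat between 36.0 and 45.5 CPM. The B cell gene Cd79b lay between 18.2 and 34.2 CPM. The epithelial gene Krt8 had no counts in any library. Another epithelial gene, Epcam, was detected at 25.1 and 36.9 CPM in FK866 and at 41.3 and 54.1 CPM in Control, and the 7 epithelial markers summed to 27.4 and 40.1 CPM in FK866 and to 42.6 and 55.4 CPM in Control. Of the markers of other cell types Pecam1 was highest, at 225 and 187 CPM in FK866 and 181 and 142 CPM in Control. The rest of its stromal and endothelial list (Col1a1, Col1a2, Pdgfra, Cdh5 and Dcn) lay between 0 and 2.86 CPM. Including Pecam1, the 39 listed markers of other cell types summed to 347 and 322 CPM in FK866 and to 324 and 304 CPM in Control. Of them, 27 could be tested, and edgeR called 0 of them (4 had an unadjusted p under 0.05, with 2 lower and 2 higher, and DESeq2 called 1). Nampt had 64.6 and 60.9 CPM in FK866 and 71.0 and 78.0 CPM in Control, which did not pass the test (adjusted p = 0.301).

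Nucleotide synthesis transcripts were lower under FK866 at several steps, and the 4 largest falls were in the deoxynucleotide genes Rrm2, Tyms, Dut and Dck. Of the 31 genes, 14 fell and 0 rose (adjusted p under 0.05 after Benjamini-Hochberg correction over 19194 genes, quasi-likelihood test of edgeR). Those 14 are 45.2% of the members, where 7.89% of all tested genes were called lower, 5.31% higher and 13.2% in either direction. Many of these enzymes are abundant, and of the 5588 tested genes whose mean log2 CPM reached 5, 15.6% were called lower, 10.7% higher and 26.3% in either direction. Without FK866 replicate 2, 5 of the 14 calls remained. No member had an unadjusted p under 0.05 in the upward direction, and DESeq2 called 15 lower and 0 higher. The median log2 fold change (FK866 over Control) was -0.46, against 0.03 over all tested genes and -0.06 over the abundant ones. Removing the trend of fold changes on transcript length and GC content gave 1352 genes lower and 1588 higher over all genes, where the reported fit gave 1514 and 1020. Among the 31 genes it gave 15 lower and 1 higher, with 12 of the 14 calls kept. For 23 of the 31 genes, both FK866 libraries lay below both Control libraries, as did 29.3% of all tested genes and 39.9% of the abundant ones. RNA from bulk cultures does not tell fewer dividing cells apart from less RNA of these genes per cell.

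**Figure D1:**
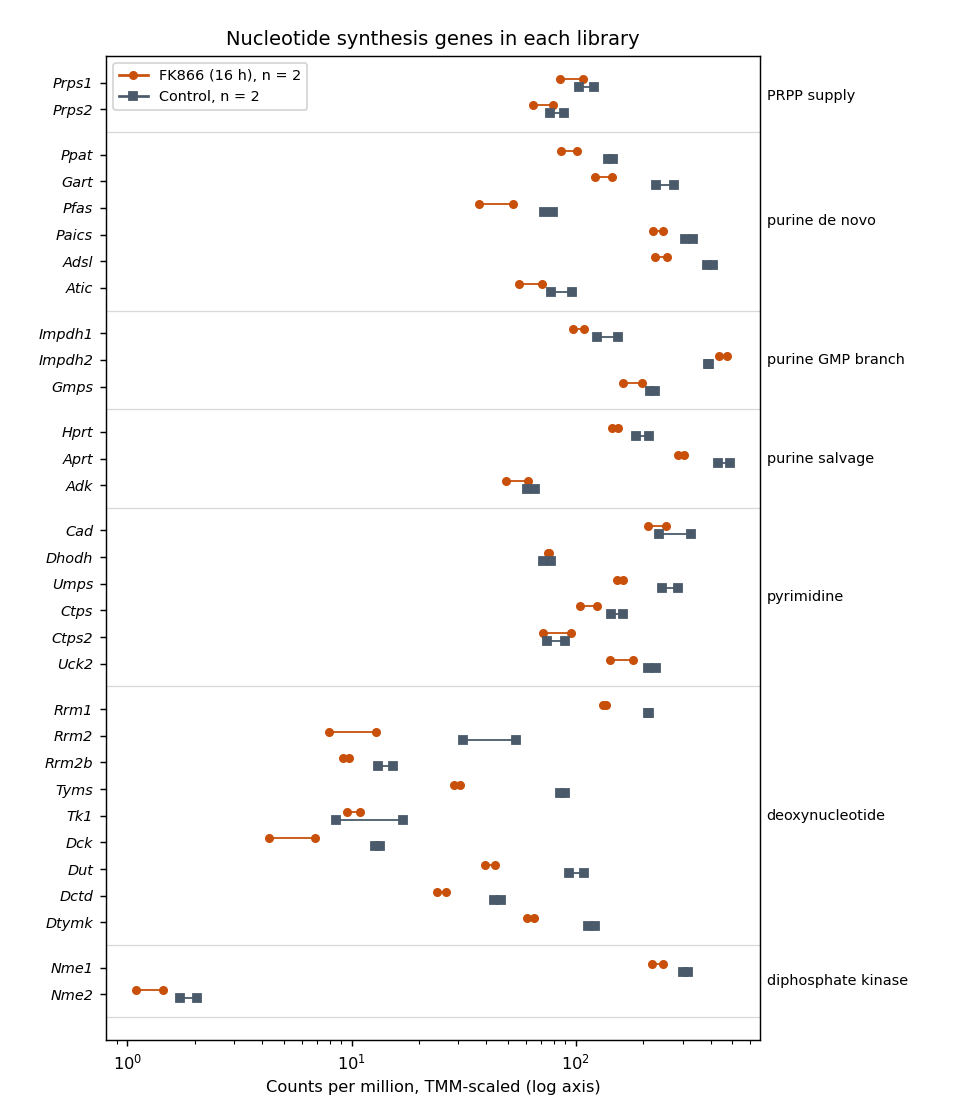
Level of each nucleotide synthesis gene in each library, in CPM with TMM scaling on a log axis, with the 2 FK866 libraries (circles) above the 2 Control libraries (squares) in each row and a line joining the libraries of a group. The FK866 circles lie left of the Control squares for 23 of the 31 genes, with the widest gaps at Rrm2 and Tyms, and they lie right of them for Impdh2.

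The steps differed in how many of their genes were called. The deoxynucleotide enzymes gave 7 lower of 9 (median log2 fold change -0.91), and 4 of 9 without FK866 replicate 2. De novo purine synthesis gave 5 of 6 (median -0.67), and only Gart without that library. Purine salvage gave 1 of 3, the pyrimidine enzymes 1 of 6, and PRPP synthesis, the GMP branch and the diphosphate kinases gave 0 of 2, 0 of 3 and 0 of 2. At an unadjusted p under 0.05 those last 3 groups had 0, 1 and 1 genes lower, and DESeq2 called 0, 0 and 1. The differences between steps were not tested. Among abundant genes 15.6% were called lower, and among all tested genes 7.89%. The shares were 77.8% for the deoxynucleotide enzymes and 83.3% for de novo purine synthesis. The pyrimidine share of 16.7% was near that of abundant genes. Groups of 2 or 3 genes are too small to be set against these shares.

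**Figure D2:**
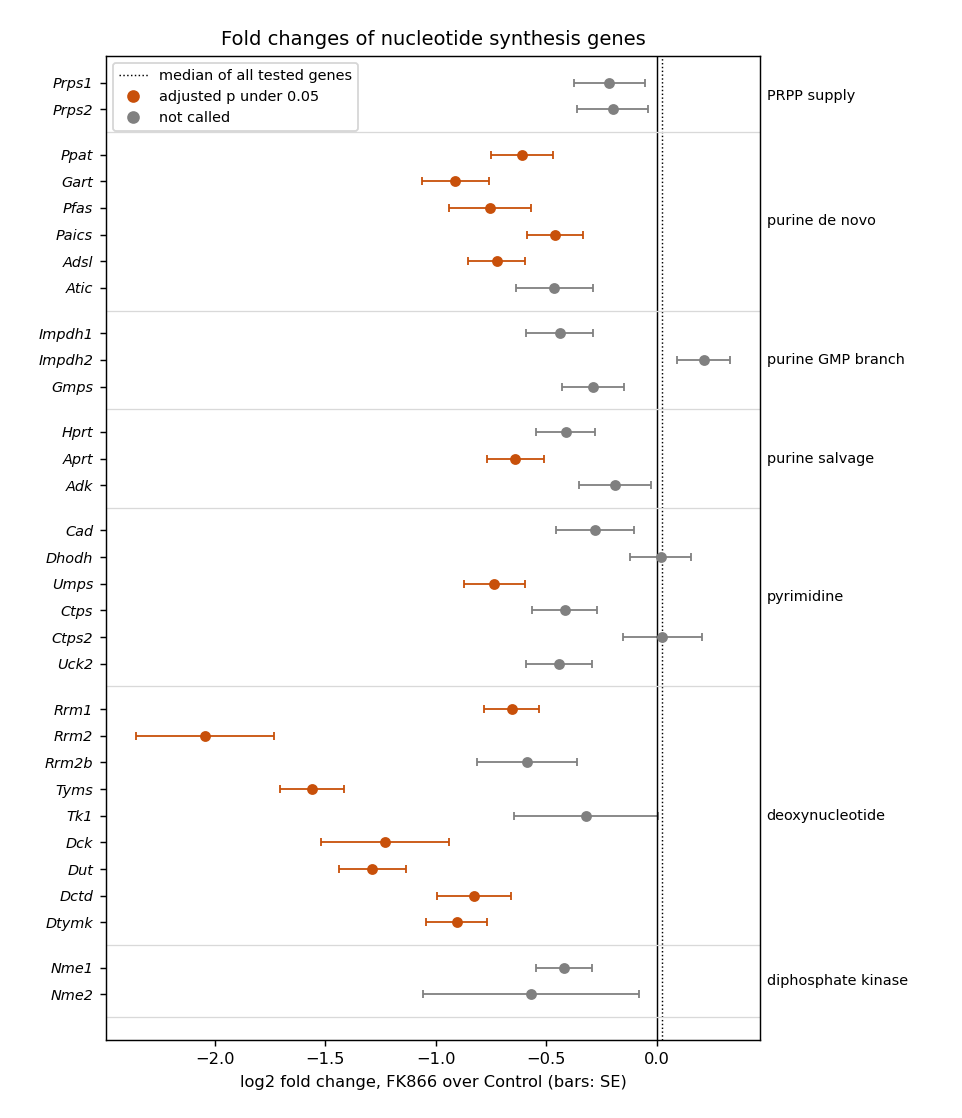
Log2 fold change of each gene, FK866 over Control, with its standard error as a bar. Genes with an adjusted p under 0.05 are orange, the others grey, and the dotted line is the median of all 19194 tested genes (0.03). The orange genes sit mainly in the de novo purine and deoxynucleotide groups, with Rrm2 (-2.05) and Tyms (-1.56) farthest from 0.

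PRPP synthetase genes gave overlapping values in the groups. Prps1 had 108 and 85.2 CPM in FK866 and 120.5 and 103 CPM in Control. Prps2 had 79.4 and 64.5 CPM in FK866 and 76.5 and 88.7 CPM in Control. Their log2 fold changes were -0.21 ± 0.16 and -0.20 ± 0.16 (SE), with adjusted p-values of 0.439 and 0.475. As each library was left out, Prps1 ranged from -0.49 to -0.03 and Prps2 from -0.45 to -0.03, with both values nearest 0 without FK866 replicate 2. The value of Prps1 changed sign, to 0.06, once the length and GC trend was removed.

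De novo purine transcripts were lower along the route. All 6 genes had both FK866 libraries below both Control libraries, as did 39.9% of abundant genes and 29.3% of all tested genes. Ppat, the amidotransferase that commits PRPP to purines, fell to 101 and 85.9 CPM in FK866, against 139.8 and 146 CPM in Control (log2 fold change -0.61 ± 0.14, SE, adjusted p = 0.0245). Gart (ENSMUSG00000022962, mm10 chromosome 16, 91621186 to 91646952, minus strand), a trifunctional enzyme of the middle of the route, had 145 and 122 CPM in FK866 and 274 and 229 CPM in Control. Its log2 fold change of -0.91 ± 0.15 (SE, adjusted p = 0.00762) was the deepest of the purine genes. Of the exon bases of Gart, 19.7% lie opposite exons of Gm15964 on the other strand, which had 12 to 41 counts per library of its own. Pfas, which adds the next nitrogen, had 52.5 and 37.2 CPM in FK866 and 78.9 and 72.5 CPM in Control (log2 -0.76, adjusted p = 0.0309). Without FK866 replicate 2, Ppat (-0.47, adjusted p = 0.248) and Pfas (-0.51, adjusted p = 0.255) were not called and Gart was (-0.77, adjusted p = 0.0211).

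Further along the same route, Paics, a bifunctional carboxylase and synthetase, had 245 and 221 CPM in FK866 and 308 and 333 CPM in Control. Its fall was the smallest of those called (log2 -0.46 ± 0.13, SE, adjusted p = 0.0478). It was not called with no filter (adjusted p = 0.189), after removal of the length and GC trend (-0.28, adjusted p = 0.0972) or without FK866 replicate 2 (-0.36, adjusted p = 0.377). Adsl, the lyase that acts both here and in the AMP branch, had 256 and 225 CPM in FK866 and 410.1 and 386 CPM in Control (log2 -0.72, adjusted p = 0.00958), and was not called without FK866 replicate 2 (-0.61, adjusted p = 0.0637). Atic, which closes the ring to inosine monophosphate, had 70.6 and 55.8 CPM in FK866 and 96.6 and 77.6 CPM in Control and did not pass (log2 -0.46 ± 0.17, SE, adjusted p = 0.12). It was called lower without FK866 replicate 1 and without Control replicate 2. Summed over the 6 enzymes, the route held 871 and 747 CPM in FK866 and 1307 and 1244 CPM in Control.

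Ppat and Paics are neighbours in a head-to-head layout on chromosome 5 (mm10), with Ppat on the minus strand from 76913249 to 76951578 and Paics on the plus strand from 76951307 to 76967509, so their annotated first exons overlap. Of their exon bases, 6.15% of Ppat and 8.67% of Paics lie in the other gene. The libraries do not mark the strand, so reads from that stretch cannot be assigned to either gene.

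No gene of the GMP branch passed the test, and its isoenzymes had fold changes of opposite sign. Inosine monophosphate dehydrogenase, which uses NAD+ as its oxidant, has a pair of isoenzymes. Impdh1 had 109 and 96.9 CPM in FK866 and 154 and 125 CPM in Control (log2 -0.44 ± 0.15, SE, adjusted p = 0.0937). Impdh2 had 471 and 436 CPM in FK866 and 389 and 394 CPM in Control (log2 0.21 ± 0.12, SE, adjusted p = 0.297). Impdh2 was the only member with both FK866 libraries above both Control libraries. This was so for 31.4% of abundant genes and 28.4% of all tested genes. Leaving out Control replicate 2 made Impdh1 a called gene (-0.58, adjusted p = 0.00342). Removing the length and GC trend shifts the median of all tested genes to 0.13, and Impdh2 was then called higher (0.47, adjusted p = 0.00977). Gmps, the GMP synthetase, had 198 and 163 CPM in FK866 and 214 and 227 CPM in Control (log2 -0.29, adjusted p = 0.223). Gmps was called lower with that trend removed (-0.49, adjusted p = 0.0207) and without Control replicate 1.

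Among the salvage enzymes, Aprt, which recycles adenine, fell to 305 and 286 CPM in FK866, against 489 and 432 CPM in Control (log2 -0.64 ± 0.13, SE, adjusted p = 0.0146). This call was lost once the length and GC trend was removed (-0.21, adjusted p = 0.155) and without FK866 replicate 2 (-0.57, adjusted p = 0.0846). The longest annotated transcript of Aprt has 929 nt. Hprt, which recycles hypoxanthine and guanine, had 155 and 145 CPM in FK866 and 186 and 213 CPM in Control (adjusted p = 0.0775). Its log2 fold change was -0.41, or -0.04 with that trend removed, and it was called lower without Control replicate 1. Adk, the adenosine kinase, had 48.9 and 61.5 CPM in FK866 and 60.4 and 65.7 CPM in Control, and the groups overlapped (log2 -0.19, adjusted p = 0.505).

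In pyrimidine synthesis 1 gene fell, Umps, the bifunctional enzyme that joins the ring to PRPP and forms UMP. It had 163 and 153 CPM in FK866 and 285 and 242 CPM in Control (log2 -0.74 ± 0.14, SE, adjusted p = 0.0115), and it was not called without FK866 replicate 2 (-0.67, adjusted p = 0.0507). Cad, the large protein that carries out the first steps of the route, had 254 and 209.6 CPM in FK866 and 327 and 236 CPM in Control, and the groups overlapped (log2 -0.28 ± 0.18, SE, adjusted p = 0.356). Cad passed the test, as lower, when Control replicate 2 was left out (-0.50, adjusted p = 0.00944) and after removal of the length and GC trend (-0.44, adjusted p = 0.0219). Dhodh, the mitochondrial dehydrogenase between Cad and Umps, had 75.1 and 75.9 CPM in FK866 and 77.4 and 71.8 CPM in Control. Its log2 fold change was 0.02 ± 0.14 (SE, adjusted p = 0.959), and its sign was negative without FK866 replicate 1, without either Control library and with no filter.

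CTP synthetase makes CTP from UTP and has a pair of isoenzymes. Ctps had 125 and 104 CPM in FK866 and 162 and 144 CPM in Control (log2 -0.42, adjusted p = 0.0975). Ctps2 had 71.3 and 95.7 CPM in FK866 and 74.3 and 89.9 CPM in Control (log2 0.02, adjusted p = 0.956), with overlapping groups. Uck2, which phosphorylates salvaged uridine and cytidine, had 180.0 and 142 CPM in FK866 and 229 and 210.0 CPM in Control (log2 -0.44, adjusted p = 0.088), and was called lower after removal of the length and GC trend (-0.51, adjusted p = 0.0164). Ctps and Uck2 were each called lower without FK866 replicate 1 and without either Control library, so the count of 1 pyrimidine gene became 3, 3 and 4 without FK866 replicate 1, Control replicate 1 and Control replicate 2, and 0 without FK866 replicate 2.

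Genes of deoxynucleotide synthesis held the 4 largest falls of the 31. Together these 9 genes held 334 and 324 CPM in FK866 and 649 and 642 CPM in Control. Ribonucleotide reductase consists of a large catalytic subunit, Rrm1, and a small radical-bearing subunit, which is Rrm2 in S phase and Rrm2b, a p53-inducible form, outside it. Rrm2 (ENSMUSG00000020649, mm10 chromosome 12, 24708241 to 24714146, plus strand) fell to 12.8 and 7.94 CPM in FK866, against 54.1 and 31.4 CPM in Control, with means of 10.4 ± 3.46 CPM in FK866 and 42.7 ± 16.0 CPM in Control (SD, n = 2 each). Neither group reached the values of the other. Its log2 fold change of -2.05 ± 0.31 (SE, adjusted p = 0.0059), a 4.13-fold fall, was the largest of the 31 genes, and it ranged from -2.53 to -1.70 as each library was left out. Rrm1 had 136 and 133 CPM in FK866 and 212 and 211 CPM in Control (log2 -0.66 ± 0.12, SE, adjusted p = 0.0121), and was not called without FK866 replicate 2 (-0.62, adjusted p = 0.0814). Rrm2b had 9.20 and 9.70 CPM in FK866 and 13.1 and 15.3 CPM in Control and did not pass (log2 -0.59 ± 0.23, SE, adjusted p = 0.126).

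Thymidylate is made from deoxyuridylate by Tyms. Tyms (ENSMUSG00000025747, mm10 chromosome 5, 30058202 to 30073617, minus strand) fell to 28.7 and 30.6 CPM in FK866, against 89.7 and 85.4 CPM in Control, with means of 29.7 ± 1.35 CPM in FK866 and 87.5 ± 3.02 CPM in Control (SD, n = 2 each). Its log2 fold change was -1.56 ± 0.15 (SE, adjusted p = 0.00108), and its call had the smallest adjusted p of the 31 genes. Dut and Dctd supply its substrate, by splitting dUTP and by deaminating dCMP. Dut had 39.3 and 43.6 CPM in FK866 and 93.1 and 109 CPM in Control (log2 -1.29 ± 0.15, SE, adjusted p = 0.00228). Dctd had 26.5 and 24.0 CPM in FK866 and 43.2 and 46.4 CPM in Control (log2 -0.83 ± 0.17, SE, adjusted p = 0.0147), a call lost without FK866 replicate 2 (-0.73, adjusted p = 0.0957). Dtymk, which phosphorylates the product, had 65.3 and 60.5 CPM in FK866 and 114 and 122 CPM in Control (log2 -0.91 ± 0.14, SE, adjusted p = 0.00576). Each of these 4 genes had both FK866 libraries below both Control libraries, as did 39.9% of abundant genes and 29.3% of all tested genes.

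Of the salvage kinases of deoxynucleosides, Dck was called and Tk1 was not, and the difference between them was not tested. Dck, which phosphorylates deoxycytidine, fell to 6.86 and 4.29 CPM in FK866, against 13.4 and 12.7 CPM in Control (log2 -1.23 ± 0.29, SE, adjusted p = 0.0267). Its counts were the lowest of the genes called, with 185 and 146 reads in FK866 and 487 and 415 in Control, and it was not called without FK866 replicate 2 (-0.91, adjusted p = 0.121). Tk1, the cytosolic thymidine kinase, had 9.57 and 10.9 CPM in FK866 and 17.0 and 8.53 CPM in Control. The groups overlapped, the log2 fold change of -0.32 ± 0.33 (SE) did not pass (adjusted p = 0.587), and it was 0.16 without Control replicate 1.

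For 4 of the 7 deoxynucleotide genes called lower, on different chromosomes, the 170 bases before the start site are shown. They are from RefSeq (build GRCm38.p6), 5′ to 3′ on the strand of the gene. Dctd is not shown, nor are Dut and Dck, which fell further than Rrm1 and Dtymk. Rrm2 lies at chr12:24708084-24708253 (plus strand), Tyms at chr5:30073626-30073795 (minus), Rrm1 at chr7:102441525-102441694 (plus) and Dtymk at chr1:93801935-93802104 (minus). The last 13 bases of the Rrm2 sequence lie in an exon of the GENCODE annotation. Capitals mark the E-box letters CACGTG and the CCAAT box, read on either strand (ATTGG on the other).
Rrm2: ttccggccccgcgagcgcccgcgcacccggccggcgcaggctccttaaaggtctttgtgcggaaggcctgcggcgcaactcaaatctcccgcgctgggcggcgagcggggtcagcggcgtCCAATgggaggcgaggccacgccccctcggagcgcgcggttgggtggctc
Tyms: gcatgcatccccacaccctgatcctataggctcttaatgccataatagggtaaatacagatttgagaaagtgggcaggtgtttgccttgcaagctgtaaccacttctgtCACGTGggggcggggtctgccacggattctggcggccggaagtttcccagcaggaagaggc
Rrm1: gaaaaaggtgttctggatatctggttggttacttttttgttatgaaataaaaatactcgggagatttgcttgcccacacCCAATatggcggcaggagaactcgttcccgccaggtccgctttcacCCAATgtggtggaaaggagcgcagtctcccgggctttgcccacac
Dtymk: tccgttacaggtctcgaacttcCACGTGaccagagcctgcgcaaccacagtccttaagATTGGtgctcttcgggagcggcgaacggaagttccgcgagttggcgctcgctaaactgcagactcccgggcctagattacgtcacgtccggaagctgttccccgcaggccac
Promoter windows of 250 bases before to 50 bases after a start site were found for 28 of the 31 genes. The missing entries were Pfas, Dhodh and Rrm2b. An E2F word (TTTCGCGC, TTTGGCGC or TTTCCCGC, either strand) stood in 0 of 8 deoxynucleotide genes and in 2.12% of the 27025 genes with a window. It stood in 2 of the 28 members, Ppat and Prps2, and in 14 of the 29 genes with a window in a list of the G1 and S phases. The E-box letters stood in 6 of the 28 members and in 8.09% of all genes with a window: Paics, Atic, Impdh2, Tyms, Dtymk and Nme1. They were found in 3 of the 13 members called lower and in 3 of the 15 others. The CCAAT box stood in 12 of the 28 members and in 41.1% of all genes. Of the 8 deoxynucleotide genes with a window, 2 held the E-box letters and 4 the CCAAT box, and Dut and Dck held neither. No marked motif overlaps another in the sequences shown. A match is a match of letters and was not tested for binding. Only the exact letters given were counted, so sites that differ from them would be missed, and a gene without a match may still hold one.

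Nucleoside diphosphate kinases raise all diphosphates to triphosphates. Nme1 had 244 and 219 CPM in FK866 and 302 and 318 CPM in Control, without overlap (log2 -0.42 ± 0.13, SE, adjusted p = 0.0628). DESeq2 called it lower (adjusted p = 0.0435), as did upper-quartile scaling (adjusted p = 0.0474). Leaving out FK866 replicate 1 or Control replicate 1 also gave a call. Nme2 held only 39 and 37 reads in FK866 and 74 and 56 in Control. Of its exon bases, 48.9% are shared on the same strand with Gm20390, an annotated readthrough of both genes that had 0 counts in every library. Nme1 shares 12.5% of its exon bases with the same readthrough. Reads of the shared exons may not have been counted, so the levels of Nme2 and Nme1 are uncertain. The log2 fold change of Nme2, -0.57 ± 0.49 (SE, adjusted p = 0.509), rests on its few reads. Smaller overlaps with genes of the opposite strand were annotated for Rrm2b (8.04% of exon bases), Umps (6.11%) and Uck2 (2.75%).

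Where a step has a pair of isoenzymes, their split of the reads was compared within each library, which does not depend on scaling between libraries. Rrm2b took 41.8% and 55.0% of the reads of Rrm2b and Rrm2 in FK866 and 19.5% and 32.7% in Control. The exact (Clopper-Pearson) 95% intervals ran from 37.8% to 45.8% and from 50.9% to 59.0% in FK866 and from 18.0% to 21.2% and from 30.4% to 35.1% in Control, and cover counting error only. Both FK866 libraries had the higher share, while Rrm2b itself was not higher in CPM. Impdh1 took 18.8% and 18.2% of the reads of Impdh1 and Impdh2 in FK866 and 28.4% and 24.1% in Control, again without overlap. Ctps took 63.7% and 52.2% of its pair in FK866 and 68.6% and 61.5% in Control, and Prps1 took 57.6% and 56.9% of its pair in FK866 and 61.2% and 53.8% in Control, with overlap for each. These are shares of reads and not of molecules, since the transcripts differ in length. With 2 libraries against 2, an exact two-sided permutation test cannot give a p below 0.333, so no test was made.

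**Figure D3:**
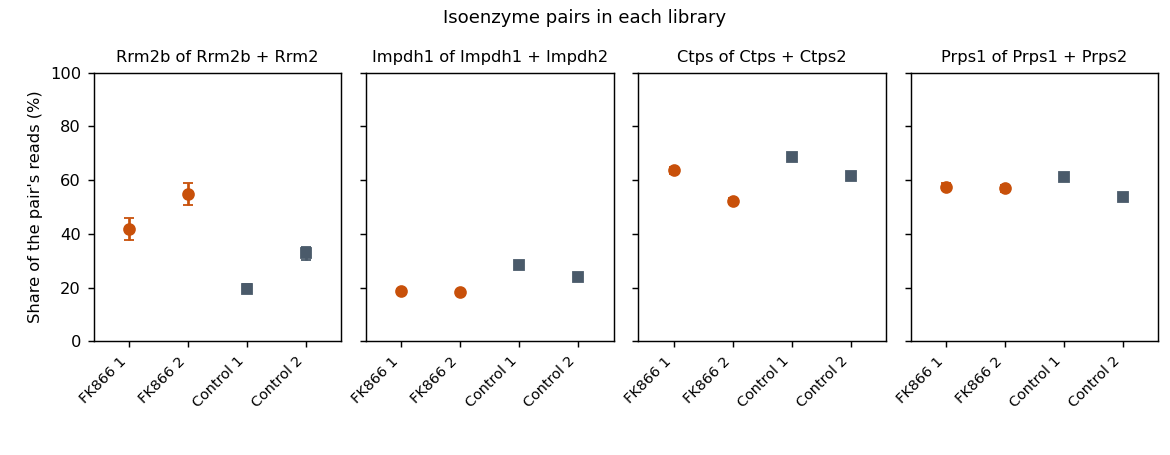
Share of the reads of an isoenzyme pair that fell on the first gene, in percent, in the FK866 libraries (circles) and the Control libraries (squares), with exact 95% intervals for counting error, some smaller than the symbols. The share of Rrm2b is 41.8% and 55.0% in FK866 and 19.5% and 32.7% in Control, that of Impdh1 is lower in FK866, and the other pairs overlap.

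Per kilobase of annotated exon, the most abundant member was Aprt, with a mean of 183 CPM per kb in FK866 and 285 in Control. Next in Control came Hprt with 116 in FK866 and 155 in Control, and Impdh2 with 147 in FK866 and 127 in Control. The lowest in Control were Rrm2b (1.03 in FK866 and 1.55 in Control), Nme2 (1.08 in FK866 and 1.60 in Control) and Tk1 (1.97 in FK866 and 2.46 in Control). Exon lengths were taken over all annotated transcripts, which lowers the value of genes with long, rarely used exons.

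Genes that feed or drain the pathway were called lower at a share near that of abundant genes. Of 63 tested genes in the 7 neighbouring groups, 12 fell and 2 rose (median log2 fold change -0.34). The 12 are 19.0% of these genes, close to the 15.6% called lower among abundant genes, where 7.89% of all tested genes were. The count lower was 21 without Control replicate 1 and 8 without FK866 replicate 2. In ribose phosphate supply, 2 of 8 (25%) fell. G6pdx, which opens the pentose phosphate pathway, had 219 and 215 CPM in FK866 and 324 and 325 CPM in Control (log2 -0.58, adjusted p = 0.0169). Of its exon bases, 13.6% lie opposite exons of Ikbkg, and it was not called without FK866 replicate 2 (-0.55, adjusted p = 0.116). The other was Pgls, which acts next (log2 -0.66, adjusted p = 0.0167), which shares 20.6% of its exon bases with Fam129c on the same strand. The PRPP synthetase-associated genes Prpsap1 (log2 -0.12, adjusted p = 0.595) and Prpsap2 (-0.67, adjusted p = 0.0525) did not pass, nor did Adss (0.15, adjusted p = 0.549) and Adssl1 (-0.91, adjusted p = 0.269) of the AMP branch. Leaving out 1 library gave calls for Prpsap2 (-0.91 without FK866 replicate 1 and -0.86 without Control replicate 1) and for Adssl1 (-1.70 without FK866 replicate 2, -1.42 without Control replicate 1).

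Of 10 genes of folate-linked enzymes, which carry carbon to purines and to Tyms, 1 (10%) fell and 1 rose. Over all tested genes, 7.89% were called lower and 5.31% higher, and among abundant genes 15.6% and 10.7%. Mthfd2, of the mitochondrial arm, rose to 251 and 219.9 CPM in FK866, against 146 and 138 CPM in Control (log2 0.73 ± 0.13, SE, adjusted p = 0.0104). Shmt1, of the cytosolic arm, fell to 51.1 and 36.2 CPM in FK866, against 93.3 and 75.5 CPM in Control (log2 -0.95 ± 0.20, SE, adjusted p = 0.017). Mthfd2 was not called without FK866 replicate 1 (0.54, adjusted p = 0.0875), nor Shmt1 without FK866 replicate 2 (-0.70, adjusted p = 0.0718). Among kinases of mono- and diphosphates, 3 of 11 (27.3%) fell, among them Nme6 (log2 -0.84, adjusted p = 0.0118) and the guanylate kinase Guk1 (-0.68, adjusted p = 0.0127). Guk1 was not called without FK866 replicate 2 (adjusted p = 0.078), nor were Nme6 and Guk1 after removal of the length and GC trend (adjusted p = 0.0618 and 0.0995). None of the 9 nucleoside salvage and transport genes was called by edgeR (2 had an unadjusted p under 0.05 and DESeq2 called 2), with the transporter Slc29a1 at log2 -0.19 (adjusted p = 0.43) and Uck1 at 0.51 (adjusted p = 0.097, but 0.00123 without Control replicate 1).

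Breakdown enzymes fell in 6 of 21 cases (28.6%, against 15.6% of abundant genes and 7.89% of all tested genes) and rose in 1. Dctpp1, which clears modified dCTP, had 36.2 and 37.3 CPM in FK866 and 74.9 and 82.8 CPM in Control (log2 -1.10 ± 0.15, SE, adjusted p = 0.00354). The nucleotidase Nt5c (log2 -0.90, adjusted p = 0.00464) and adenosine deaminase, Ada (-1.01, adjusted p = 0.00625), also fell. Nt5e, the ectoenzyme CD73 that makes adenosine outside the cell, rose to 34.3 and 42.3 CPM in FK866, against 14.1 and 15.9 CPM in Control (log2 1.36 ± 0.19, SE, adjusted p = 0.00455).

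Many genes of DNA replication fell alongside those of deoxynucleotides. Of 37 genes of the G1 and S phases, 28 (75.7%) fell and 0 rose (0 upward at an unadjusted p under 0.05, and 0 by DESeq2). The median log2 fold change was -1.15, against -0.91 for the 9 deoxynucleotide genes. Those with the smallest adjusted p were Cdc6 (log2 -2.61), Mcm7 (-1.37), Mcm5 (-1.40) and Mcm2 (-1.44). The summed level of this list was 2103 and 1978 CPM in FK866 and 4393 and 3899 CPM in Control. Of 25 genes of G2 and mitosis, 2 fell, Cdc20 (-1.03) and Ccna2 (-2.28). These are 8% of the list, where 7.89% of all tested genes were called lower. At an unadjusted p under 0.05, 8 were lower, DESeq2 called 5 lower, and 21 of the 25 fold changes were negative. The median log2 CPM of this list was 1.92, against 5.34 for the G1 and S phase list, so the counts of calls are not directly comparable. Cdc20 was not called without FK866 replicate 2 (adjusted p = 0.0752), nor Ccna2 without Control replicate 1 (-1.54, adjusted p = 0.0881). The G2 and mitosis list held 148 and 128 CPM in FK866 and 226 and 164 CPM in Control. The part of cell cycle state in the nucleotide genes was not tested. Of 15 tested p53 targets, a class that includes Rrm2b, 3 fell and 1 rose. The 3 are 20% of these genes, close to the 15.6% called lower among abundant genes, where 7.89% of all tested genes were. Phlda3 (-1.13, adjusted p = 0.0334), Bax (-0.64, adjusted p = 0.047) and Ccng1 (-0.57, adjusted p = 0.0488) fell and Trp53inp1 (0.64, adjusted p = 0.0294) rose. None of these 4 was called without FK866 replicate 2, where Phlda3 had -0.74, Bax -0.42, Ccng1 -0.38 and Trp53inp1 0.62, and Trp53inp1 was not called without FK866 replicate 1 either. After removal of the length and GC trend, Phlda3 (-0.72, adjusted p = 0.0588), Bax (-0.17, adjusted p = 0.342) and Ccng1 (-0.49, adjusted p = 0.0632) were not called.

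**Figure D4:**
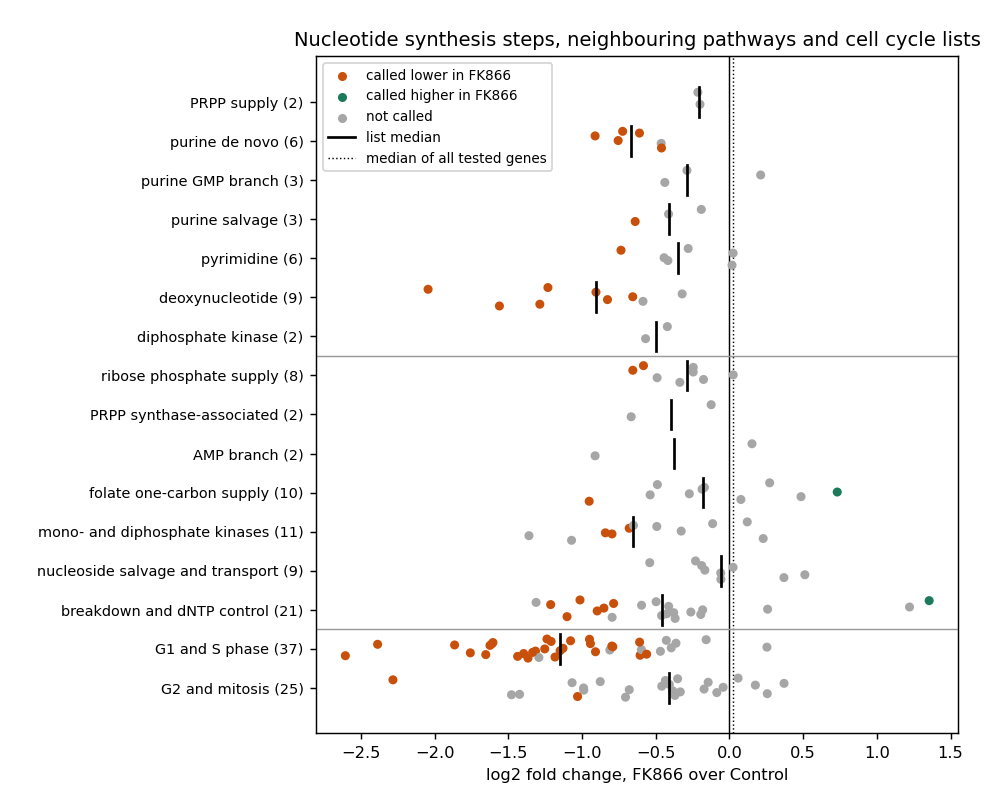
Log2 fold change of every tested gene, FK866 over Control, by pathway step (top), neighbouring group (middle) and cell cycle list (bottom), with the number of tested genes in brackets, list medians as black bars and the median of all tested genes as a dotted line. The deoxynucleotide median is -0.91 and that of the G1 and S phase list -1.15, and the neighbouring genes called higher are Mthfd2 and Nt5e.

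The calls rested unevenly on the libraries. Without FK866 replicate 2, which leaves a lone FK866 library assumed to vary like the Controls, 5 of the 14 calls remained: Gart, Rrm2, Tyms, Dut and Dtymk. The count over all genes called lower fell to 828 in that comparison, against 1514 with all libraries. Without FK866 replicate 1, Control replicate 1 or Control replicate 2, all 14 calls remained, within totals of 18, 19 and 19. Each of the 14 genes kept a negative fold change under all 12 alternatives tried.

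**Figure D5:**
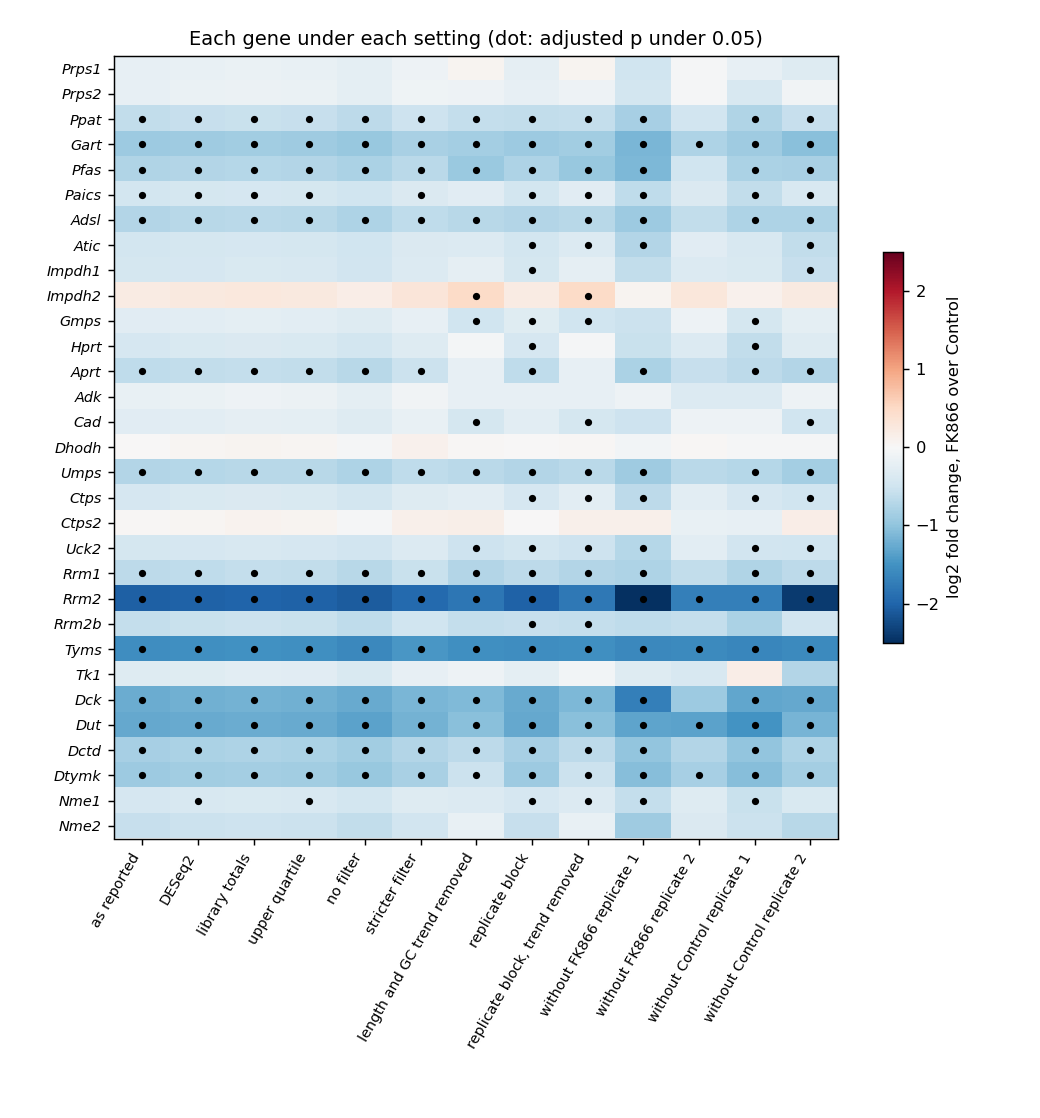
Log2 fold change of each gene, FK866 over Control, as reported and under each of 12 alternative settings (columns), in blue where lower and red where higher in FK866, with a dot at an adjusted p under 0.05. Rrm2, Tyms, Dut, Dtymk and Gart carry a dot in every column, and all other dots are missing without FK866 replicate 2.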

How the data were processed

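The authors' deposited table gives whole-number read counts for each Ensembl gene in each library, with no normalization, as its values show. Per the submitters' processing notes, cutadapt 1.9, HISAT2 2.2.1 and build mm10 were used. The counting program and its strand setting were not given. Per the labels' protocols, SMART-Seq HT and Nextera XT kits were used; their libraries carry no strand. Symbols and positions came from GENCODE M21 (GRCm38), which matched 55227 of 55487 IDs.

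Counts were analysed in R 4.3.3 with edgeR 4.0.16 (glmQLFit and glmQLFTest, two-sided, TMM scaling, treatment as the only term). The function filterByExpr (minimum count 10, minimum total 15) kept 19194 genes, over which p-values were Benjamini-Hochberg adjusted, with a threshold of 0.05. The SE was derived from the fold change and its F value. CPM uses TMM-scaled totals. DESeq2 1.42.0 was an alternative. For the length and GC alternative, a spline trend in each library entered as an offset. The test was checked on simulated counts.

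The 31 members and all gene lists were chosen with earlier results of these data known. All members are named. Each other list contributes up to 4 called genes by smallest adjusted p or, if none was called, its 2 genes with the most counts. A gene that this rule names is not reported here.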

Additional observations from a re-analysis of the deposited data

How the results depend on the processing

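Of the 31 genes, the number called lower was 14, and 13 to 15 with DESeq2, library-total or upper-quartile scaling, no filter, a stricter filter (50 counts in 2 libraries) or removal of the length and GC trend. As each library was left out it ranged from 5 to 19, that of purine genes from 1 to 8 (6 with all libraries), of pyrimidine genes from 0 to 4 (1) and of deoxynucleotide genes from 4 to 7 (7). Over all genes the leave-one-out ranges were 828 to 2462 lower (1514) and 661 to 1457 higher (1020), and in neighbouring groups 8 to 21 lower (12) and 1 to 3 higher (2). For G1 and S phase genes the range was 23 to 32 lower (28). Removing the length and GC trend gave 1588 genes higher, 3 pyrimidine genes lower and 1 member higher, Impdh2. The stricter filter gave 1810 genes and 5 neighbouring genes higher, and DESeq2 4 neighbouring genes higher. Shared replicate numbers are not stated to pair the libraries. The deviations of same-numbered libraries correlated at 0.37 across 9701 genes, which are not independent. A replicate block gave 3059 genes lower and 2197 higher, 22 members, 10 purine and 3 pyrimidine genes lower, and 26 neighbouring genes lower and 5 higher. A replicate block with the length and GC trend removed gave 2584 genes higher, 4 pyrimidine genes lower, 5 neighbouring genes higher and 1 member higher. Signs turned only in genes that were not called. After removal of the length and GC trend, without and with the replicate block, Prps1 had 0.0604 and 0.0621, Prpsap1 0.158 and 0.157, and Slc29a1 0.0428 and 0.0428. With no filter, Dhodh had -0.029 and Ctps2 -0.0303. As libraries were left out, Dhodh ranged from -0.071 to 0.0318, Ctps2 from -0.205 to 0.17, Tk1 from -0.733 to 0.163 and Adss from -0.0522 to 0.264. The causes were not tested. Among the 31 genes, each called gene had at least 146 reads in every library, and Nme2, which was not called, had 37 to 74. Some called genes of other lists had fewer, such as Ccna2 with 41 and 27 reads in FK866.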
